A study of Mus musculus with 15 samples.

Results

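The levels of 9 genes of polyamine metabolism were read across the 15 RNA-seq libraries of a study on growth factor signalling in NIH3T3, a cell line made from fibroblasts of mouse embryos. The genes are Odc1, Amd1, Srm, Sms, Sat1, Smox, Oaz1, Oaz2 and Azin1, chosen by name out of 55266 genes, and the level of each is the sum of the reads counted for all of its annotated transcripts. The study compared 5 groups of 3 libraries: H2A-TerminaTOR cells given cycloheximide and PDGF, H2A-mCherry cells given cycloheximide and PDGF, H2A-mCherry cells given rapamycin and PDGF, H2A-mCherry cells given PDGF, and H2A-mCherry cells given no PDGF. Each of the pair of cell lines carried a stably inserted transgene that doxycycline switches on: in the control line histone H2A joined to the red fluorescent protein mCherry, and in the other H2A joined to TerminaTOR, a genetically encoded inhibitor of mTORC1 that the histone part holds in the nucleus. All cells had been starved before PDGF, a growth factor for fibroblasts, was or was not added. Rapamycin inhibits mTORC1, a growth-promoting kinase complex, wherever it is in the cell, and cycloheximide stops protein synthesis. TerminaTOR cells were sequenced with cycloheximide only, so their control is the mCherry line with cycloheximide and PDGF, and the comparison sets 1 line against another. Reads of the transgenes were not analysed here. Nothing in the labels says whether the 3 libraries of a group are separate cultures, so p-values measure the spread between these samples only, and that spread may be technical. No dose or time is given in the sources used here.

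Polyamines (putrescine, spermidine and spermine) are small positively charged molecules that bind RNA and that growing cells need. Ornithine decarboxylase (ODC, from Odc1) makes putrescine from ornithine, S-adenosylmethionine decarboxylase (Amd1) supplies the aminopropyl donor, spermidine synthase (Srm) and spermine synthase (Sms) lengthen the chain, and the acetyltransferase SSAT (Sat1) and spermine oxidase (Smox) take it back down. Antizymes (Oaz1, Oaz2) bind ODC and hand it to the proteasome, and the antizyme inhibitor (Azin1), which resembles ODC but has no enzymatic activity, binds antizyme and frees ODC. Odc1 is a classical growth factor-induced gene of fibroblasts and a known target of the transcription factor MYC. Alternative transcripts of Sat1 that keep extra sequence between its exons and are degraded by nonsense-mediated decay (NMD) are known to be controlled by the polyamine level. NMD itself needs translation, which cycloheximide stops.

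Summed over the 9 genes, the reads fell mostly outside protein-coding transcripts. Of all reads of the 9 genes, 65.0% were counted on transcripts annotated as retained intron, 24.1% on protein-coding, 10.3% on NMD and 0.62% on processed transcripts, whereas over all genes 86.0% of reads were on protein-coding and 2.07% on retained-intron transcripts. The plot of transcript types shows that the genes differed in this, and Sat1 alone gave 8160 of the 9605 reads on retained-intron transcripts. Srm had 96.2%, Sms 88.7% and Smox 76.0% of their reads on protein-coding transcripts, while Sat1 had 100% and Oaz1 99.7% on retained-intron transcripts, and Odc1 had 95.5% on the NMD transcript Odc1-205. Azin1 had 77.0% of its reads on retained-intron, 10.6% on NMD and 9.27% on protein-coding transcripts. HTSeq, the counter the submitters name, does not by default count reads that several features share. Counted so, only reads over bases that belong to a single transcript are left, and the values below follow those stretches and not the whole messenger RNA. Reads inside an intron can come from a transcript that keeps the intron or from RNA not yet spliced, and these counts cannot tell the sources apart. Of 8142 protein-coding genes tested, 6219 (76.4%) had most reads on protein-coding transcripts, 1487 (18.3%) on retained-intron and 113 (1.39%) on NMD transcripts.

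**Figure D1:**
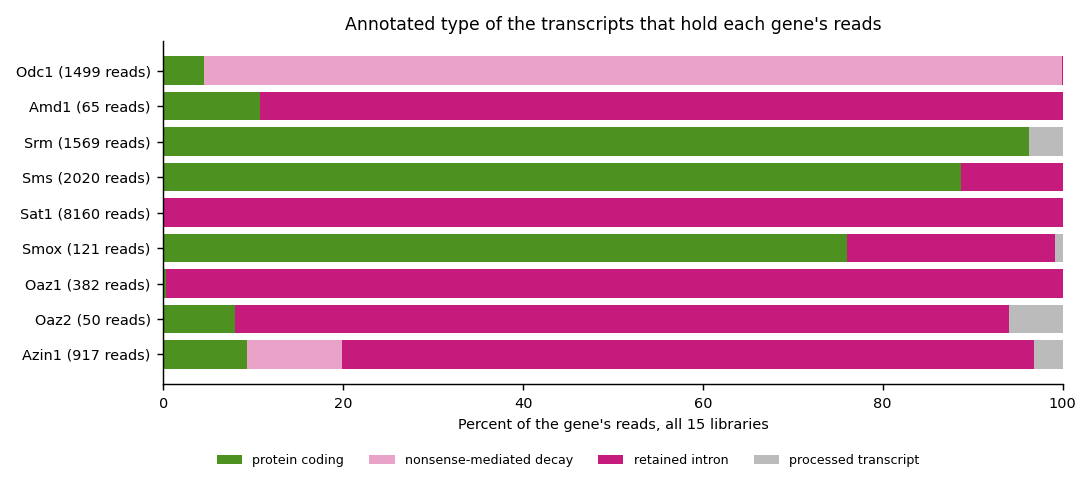
Share of each gene's reads, in percent summed over the 15 libraries, by the annotated type of the transcript they were counted on (horizontal bars, 1 per gene). Srm (96.2% protein-coding) and Sat1 (100% retained intron) stand at opposite ends, and Odc1 is mostly NMD (95.5%).

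The stretches that carried the reads of the 3 tested intron-dominated genes are shown by their edges, 150 bases each on the strand of the gene, read from GRCm38. Most reads of Sat1, Azin1 and Oaz1 were counted on the transcripts that hold these stretches. Capitals mark the 30 exon bases next to the intron, and lower case the 120 intron bases that follow or precede them. Sat1-205 took 97.9% of the reads of Sat1, and its longest stretch of its own is 770 bases of intron 3 of the coding transcript (chrX:155214135-155214904), up to exon 4. Azin1-206 took 75.5% of the reads of Azin1, with 783 bases of its own in intron 9 (chr15:38492691-38493473). The longest stretch of Oaz1-206 is 806 bases of intron 1 (chr10:80826906-80827711), out of 1383 bases of its own in 3 stretches, and the counts do not say how its reads divide among these.
Sat1 intron 3 into exon 4, chrX:155214105-155214254, minus strand: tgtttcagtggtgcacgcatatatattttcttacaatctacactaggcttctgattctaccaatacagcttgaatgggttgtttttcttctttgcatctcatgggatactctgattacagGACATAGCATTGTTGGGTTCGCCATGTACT
Azin1 exon 9 into intron 9, chr15:38493354-38493503, minus strand: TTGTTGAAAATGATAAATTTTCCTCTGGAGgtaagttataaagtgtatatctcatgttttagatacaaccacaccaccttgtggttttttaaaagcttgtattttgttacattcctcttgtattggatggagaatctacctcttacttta
Oaz1 exon 1 into intron 1, chr10:80826876-80827025, plus strand: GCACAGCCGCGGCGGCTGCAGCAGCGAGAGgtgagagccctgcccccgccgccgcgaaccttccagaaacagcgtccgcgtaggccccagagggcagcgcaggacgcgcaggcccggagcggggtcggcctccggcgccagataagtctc

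**Figure D2:**
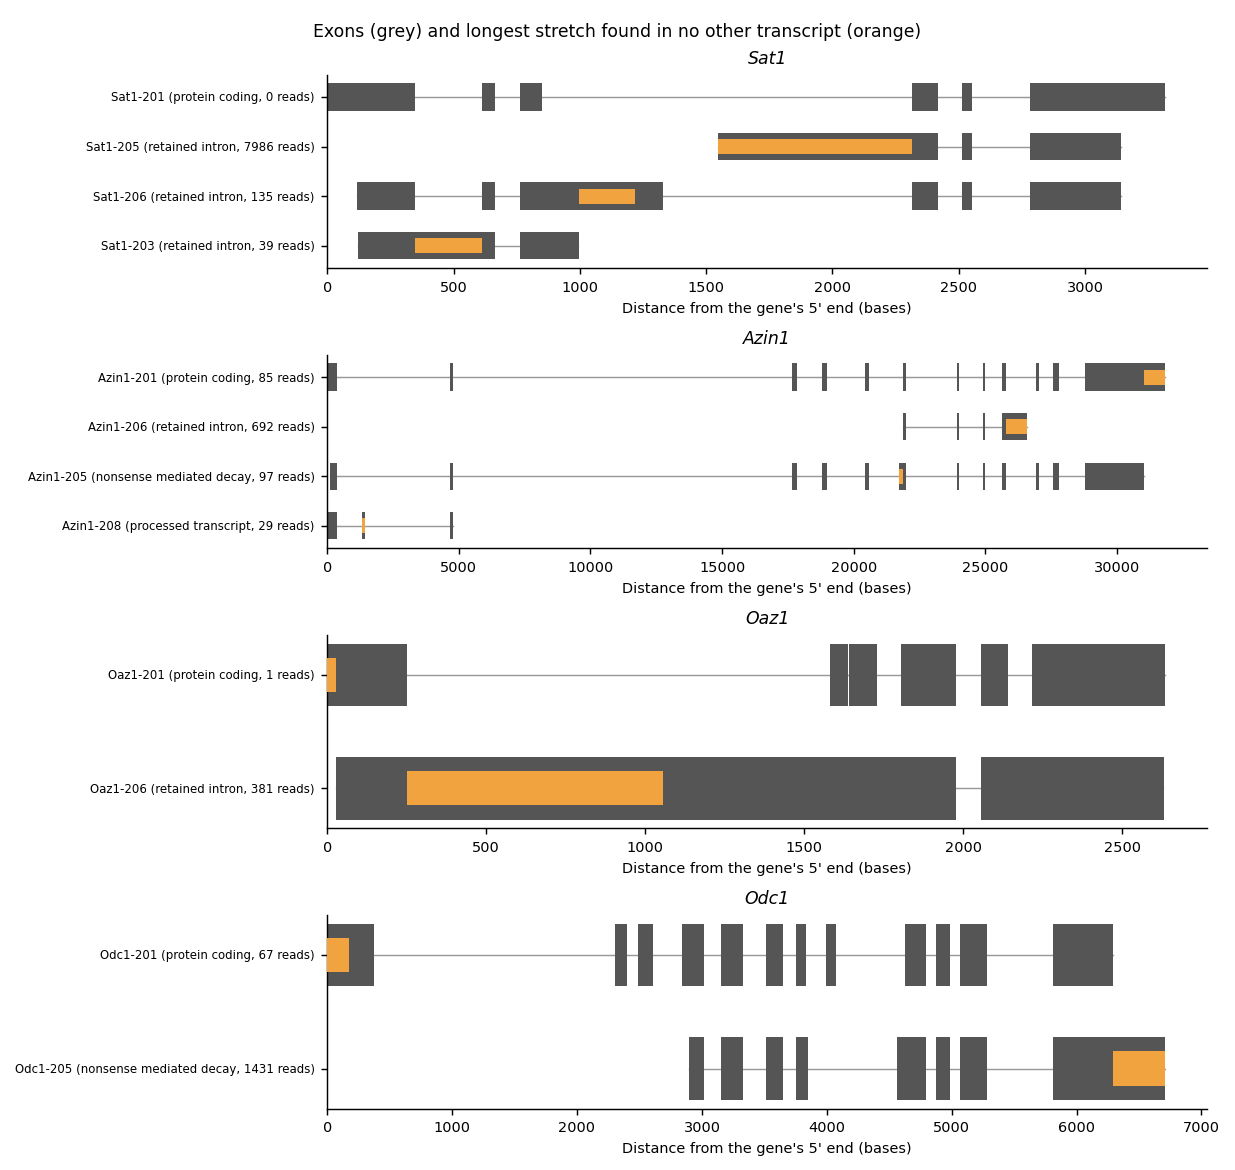
Transcripts of Sat1, Azin1, Oaz1 and Odc1 drawn to scale along the distance in bases from the 5′ end of the gene, with exons in grey and the longest stretch that belongs to a single transcript in orange. The orange stretches of Sat1-205 (770 bases), Azin1-206 (783 bases) and Oaz1-206 (806 bases) lie in introns of the coding transcripts, and that of Odc1-205 (421 bases) lies beyond the 3′ end of the coding transcript Odc1-201.

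The other genes were counted in other places. Odc1-205, with 1431 of the 1499 reads of Odc1, has 421 bases of its own beyond the 3′ end of the coding transcript Odc1-201 (chr12:17551085-17551505). Reads there can also come from a coding RNA with a longer 3′ end, which the counts do not separate. The longest stretch of Srm-201 alone is its last exon, exon 7 (333 of its 617 bases of its own), and that of Sms-201 is part of its last exon, exon 11 (1841 of 2062). The longest stretch of Smox-204 lies beyond the 3′ end of Smox-201. Amd1 had 65 reads in all, 89.2% of them on retained-intron transcripts, and its coding transcript Amd1-201 had 0. That transcript has a near-identical copy in Amd2: 86.1% of its 50-base words also occur in Amd2-201, so the levels of Amd1 and of Amd2 (3207 reads) are uncertain. Oaz2 had 50 reads, 86.0% of them on retained-intron transcripts.

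Library totals ran from 3466202 to 6777780 counts. The mitochondrial share of counts was 6.32 to 6.63% in the TerminaTOR libraries, 6.28 to 6.64% in the mCherry libraries with cycloheximide, 9.85 to 11% with rapamycin, 8.69 to 9.30% with PDGF and 11.1 to 12.2% without PDGF. The summed level of 7 fibroblast markers was 7789 to 8313 CPM (a gene's counts scaled to the library total corrected by TMM) in the TerminaTOR libraries, 6737 to 7093 with cycloheximide, 3635 to 4038 with rapamycin, 6167 to 6455 with PDGF and 7351 to 7360 without PDGF. The fibroblast sum is mostly Col1a1 and Col1a2, and the 6 tested markers did not move together: 2 were higher and 3 lower with PDGF against no PDGF, 1 and 4 with rapamycin, 2 and 2 with cycloheximide, and 3 and 1 with TerminaTOR. The 6 macrophage markers summed to 17.5 to 23.2 CPM in the TerminaTOR libraries, 17.8 to 26.1 with cycloheximide, 16.9 to 18.8 with rapamycin, 16.0 to 18.9 with PDGF and 6.72 to 11.3 without PDGF. Of the 2 tested, Cd14 was 2.07-fold higher with PDGF than without (edgeR adjusted p = 0.00100), and Lyz2 did not pass (adjusted p = 0.649). Lyz2 was 4.11-fold lower with rapamycin than with PDGF alone (adjusted p = 0.00174), and Adgre1 had 0 reads. The 3 endothelial markers summed to 3.11 to 4.39 CPM with PDGF and 0.654 to 2.00 CPM without PDGF, and Cdh5, the 1 tested, was 3.13-fold higher (adjusted p = 0.0175). Pecam1 and Kdr had 0 reads in the PDGF libraries, so the sum there is Cdh5 alone. Without PDGF, Pecam1 had 4 reads and Kdr 0. Epithelial markers summed to at most 3.88 CPM in any library, and Epcam and Krt18 had 0 reads. The mitochondrial share and these markers moved with the treatments, and their part in the changes below was not tested. In bulk RNA, fewer cells that express a gene and less RNA per cell cannot be told apart.

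Of the 9 genes, 7 had enough reads to be tested, and Amd1 and Oaz2 did not. Changes are log2 ratios of the group means with an approximate standard error (SE), from edgeR's quasi-likelihood test fitted to all 15 libraries, and a gene is called changed at a Benjamini-Hochberg adjusted p under 0.05 over the 10603 genes tested. With PDGF against no PDGF, 4 of the 7 were higher (Odc1, Srm, Sat1 and Azin1) and 0 lower, where 37.0% of all genes tested were called, 20.1% higher and 16.9% lower. With rapamycin and PDGF against PDGF, 2 of the 7 were higher (Odc1 and Srm) and 0 lower, where 32.3% of all genes were called, 16.3% higher and 16.1% lower. With cycloheximide and PDGF against PDGF, 3 of the 7 were higher (Sat1, Azin1 and Oaz1) and 1 lower (Srm), where 40.6% of all genes were called, 21.0% higher and 19.6% lower. In TerminaTOR against mCherry cells, all with cycloheximide and PDGF, 0 of the 7 were higher and 1 was lower (Sat1), where 4.92% of all genes were called, 2.35% higher and 2.57% lower. Against no PDGF, rapamycin with PDGF raised 4 of the 7 (Odc1, Srm, Sat1 and Azin1) and lowered 0, where 53.3% of all genes were called, 27.8% higher and 25.5% lower. Cycloheximide with PDGF against no PDGF raised 4 (Odc1, Sat1, Oaz1 and Azin1) and lowered 0, where 47.4% of all genes were called, 24.6% higher and 22.8% lower. All of these comparisons but that of TerminaTOR share the PDGF or the no-PDGF libraries with another, and cycloheximide libraries enter the TerminaTOR comparison too, so their values are not independent of each other.

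**Figure D3:**
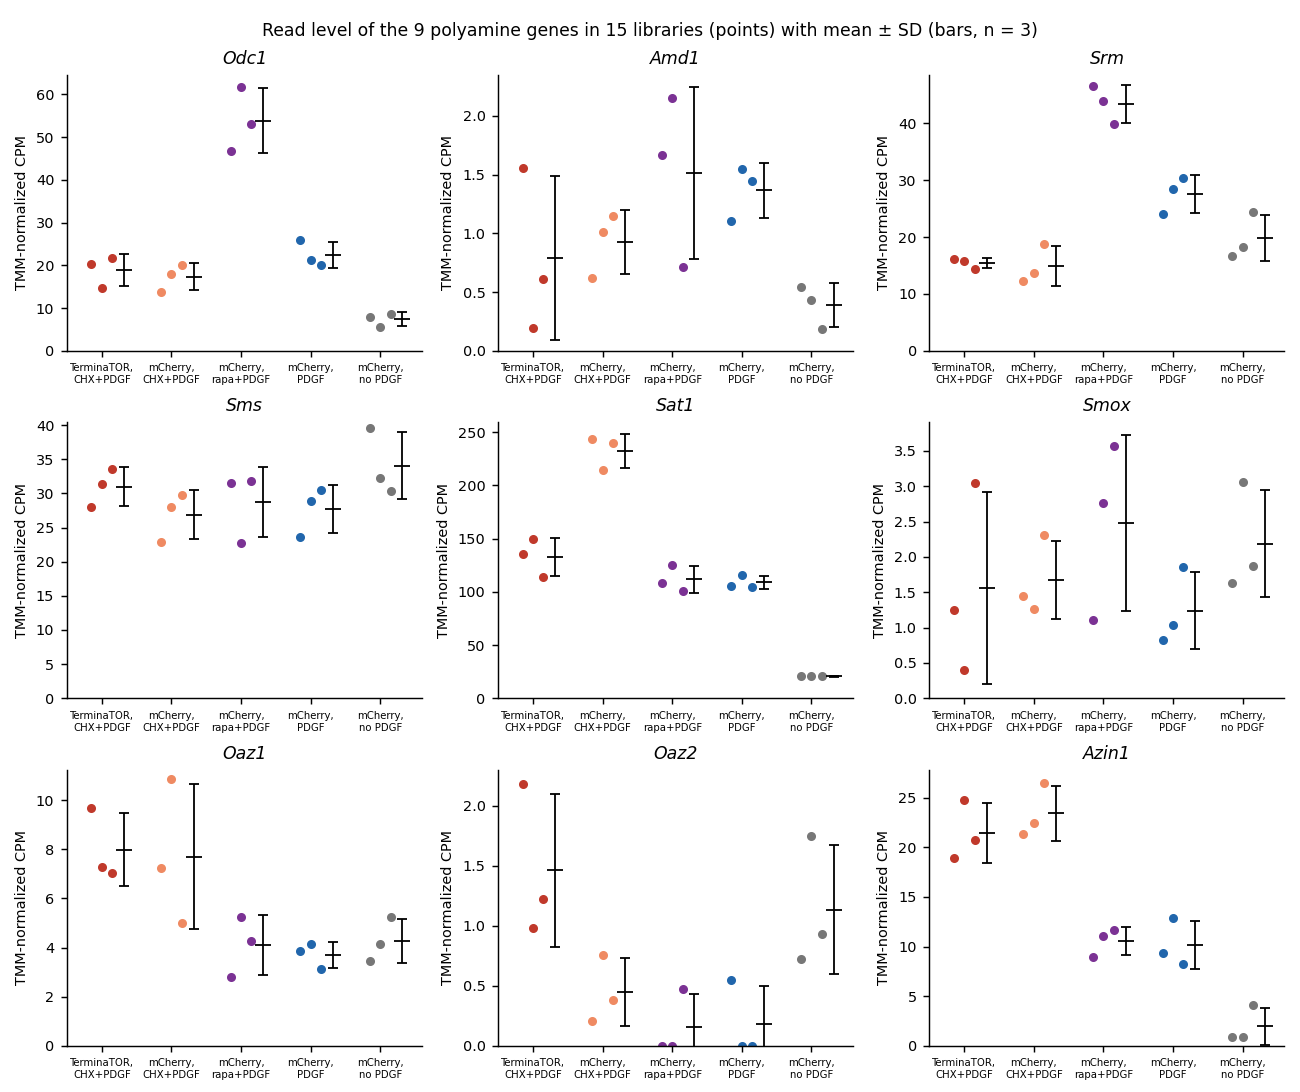
Level of each of the 9 genes in CPM (vertical axis, from 0, scaled per panel) in the 15 libraries, by group from left to right: TerminaTOR with cycloheximide and PDGF, and mCherry with cycloheximide and PDGF, with rapamycin and PDGF, with PDGF, and without PDGF. Points are libraries and the lines are the mean and SD of 3, cut off at 0. Odc1 and Srm are highest with rapamycin (53.9 and 43.5 CPM on average), and Sat1 and Azin1 are highest in mCherry cells with cycloheximide (232 and 23.4 CPM). The TerminaTOR libraries overlap with these mCherry libraries for Azin1 but not for Sat1.

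The genes of synthesis come first. Odc1 (ENSMUSG00000011179, chr12:17544794-17551505, plus strand), the rate-limiting step, had 20.3, 14.7 and 21.7 CPM in TerminaTOR cells with cycloheximide and PDGF and 13.9, 17.9 and 20.2 CPM in mCherry cells with cycloheximide and PDGF. It had 46.8, 61.8 and 53.0 CPM with rapamycin and PDGF, 25.9, 21.2 and 20.1 CPM with PDGF, and 7.995, 5.45 and 8.60 CPM without PDGF. The 3 rapamycin libraries lay above all others and the 3 without PDGF below all others, while the PDGF libraries overlapped with those of TerminaTOR and cycloheximide. PDGF raised Odc1 3.00-fold over no PDGF (log2 1.58 ± 0.21 SE, edgeR adjusted p = 1.75e-09). Rapamycin with PDGF raised it a further 2.41-fold over PDGF (1.27 ± 0.18, adjusted p = 8.29e-09), which put it 7.23-fold above no PDGF (adjusted p = 2.98e-21). With cycloheximide and PDGF it was still 2.33-fold above no PDGF (1.22 ± 0.21, adjusted p = 1.41e-06), and its difference from PDGF did not pass the test (-0.36 ± 0.19, adjusted p = 0.122), though it did with scaling by library size only (-0.50, adjusted p = 0.0308). TerminaTOR and mCherry cells did not differ past the threshold (0.12 ± 0.19, adjusted p = 0.836, approximate 95% interval -0.31 to 0.54).

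The coding transcript of Odc1 had few reads of its own. Odc1-201 had 9 reads in the 3 TerminaTOR libraries, 17 in the mCherry libraries with cycloheximide, 23 with rapamycin, 14 with PDGF and 4 without PDGF. Its totals were highest with rapamycin and lowest without PDGF, as those of the gene were, but it was too low to be tested by itself. Fitted as a transcript, Odc1-205 gave 1.53 ± 0.22 for PDGF against no PDGF (edgeR adjusted p = 5.25e-09) and 1.26 ± 0.18 for rapamycin against PDGF (adjusted p = 1.21e-08).

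Amd1 (ENSMUSG00000075232, chr10:40287458-40302186, minus strand) was counted at 1 to 10 reads per library. Its group means were 0.789 ± 0.700 CPM (SD, n = 3 here and below) in TerminaTOR cells, 0.927 ± 0.275 with cycloheximide, 1.51 ± 0.73 with rapamycin, 1.37 ± 0.24 with PDGF and 0.390 ± 0.184 without PDGF. Each group overlapped with the next in order. The libraries without PDGF overlapped with those of TerminaTOR cells and lay below those of mCherry cells with PDGF, rapamycin or cycloheximide. In a fit without a filter on low counts Amd1 was not called in any comparison (for PDGF against no PDGF, log2 1.75 ± 0.92, edgeR adjusted p = 0.274).

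Srm (ENSMUSG00000006442, chr4:148591503-148594993, plus strand), which makes spermidine, was counted mainly on its coding transcript. It had 16.1, 15.7 and 14.3 CPM in TerminaTOR cells with cycloheximide and PDGF and 12.2, 13.6 and 18.8 CPM in mCherry cells with cycloheximide and PDGF. It had 46.5, 44.0 and 39.9 CPM with rapamycin and PDGF, 24.0, 28.4 and 30.5 CPM with PDGF, and 16.7, 18.3 and 24.3 CPM without PDGF. The rapamycin libraries were again above all others, and the libraries of the TerminaTOR and mCherry cells with cycloheximide were interleaved. The PDGF libraries and those without PDGF overlapped. Rapamycin with PDGF raised Srm 1.57-fold over PDGF (log2 0.65 ± 0.17, edgeR adjusted p = 0.00157) and 2.19-fold over no PDGF (adjusted p = 3.63e-08). Cycloheximide with PDGF lowered it 1.85-fold against PDGF (-0.89 ± 0.18, adjusted p = 4.65e-05). PDGF against no PDGF was a smaller rise, 1.40-fold (0.48 ± 0.18, adjusted p = 0.0231), and it did not pass without no-PDGF replicate 1 or 2, without PDGF replicate 2 or 3 (adjusted p up to 0.145), or with scaling by library size only (0.23, adjusted p = 0.301). TerminaTOR and mCherry cells did not differ past the threshold (0.05 ± 0.19, adjusted p = 0.940).

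A small transcript of Srm beyond the coding one followed the same order with few reads. Srm-202, a processed transcript, had 1 read in the TerminaTOR libraries, 1 with cycloheximide, 40 with rapamycin, 13 with PDGF and 4 without PDGF. Fitted as a transcript, it did not pass for PDGF against no PDGF (1.88 ± 1.02, edgeR adjusted p = 0.156) or rapamycin against PDGF (1.71 ± 0.77, adjusted p = 0.0893). It passed for cycloheximide against PDGF (-3.43 ± 1.27, adjusted p = 0.0262) and rapamycin against no PDGF (3.59 ± 0.90, adjusted p = 0.000511). The coding transcript Srm-201 by itself changed by -0.81 ± 0.19 with cycloheximide against PDGF (edgeR adjusted p = 0.000283), by 0.55 ± 0.18 with rapamycin against PDGF (adjusted p = 0.0121), and by 0.42 ± 0.18 with PDGF against no PDGF (adjusted p = 0.0626, not past the threshold).

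Sms (ENSMUSG00000071708, chrX:157443855-157492287, minus strand), which turns spermidine into spermine, was the flattest of the well-counted genes. It had 28.0, 31.5 and 33.6 CPM in TerminaTOR cells, 23.0, 28.0 and 29.8 CPM in mCherry cells with cycloheximide and PDGF, 31.5, 22.8 and 31.8 CPM with rapamycin, 23.7, 29.0 and 30.5 CPM with PDGF, and 39.6, 32.3 and 30.3 CPM without PDGF. Every group overlapped with the next in order. No comparison passed the test, and the approximate 95% intervals were -0.65 to 0.06 for PDGF against no PDGF (log2 -0.29 ± 0.16, edgeR adjusted p = 0.142), -0.32 to 0.42 for rapamycin, -0.41 to 0.31 for cycloheximide and -0.16 to 0.55 for TerminaTOR. With scaling by library size only, PDGF against no PDGF passed as a fall (-0.55, adjusted p = 0.00374).

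**Figure D4:**
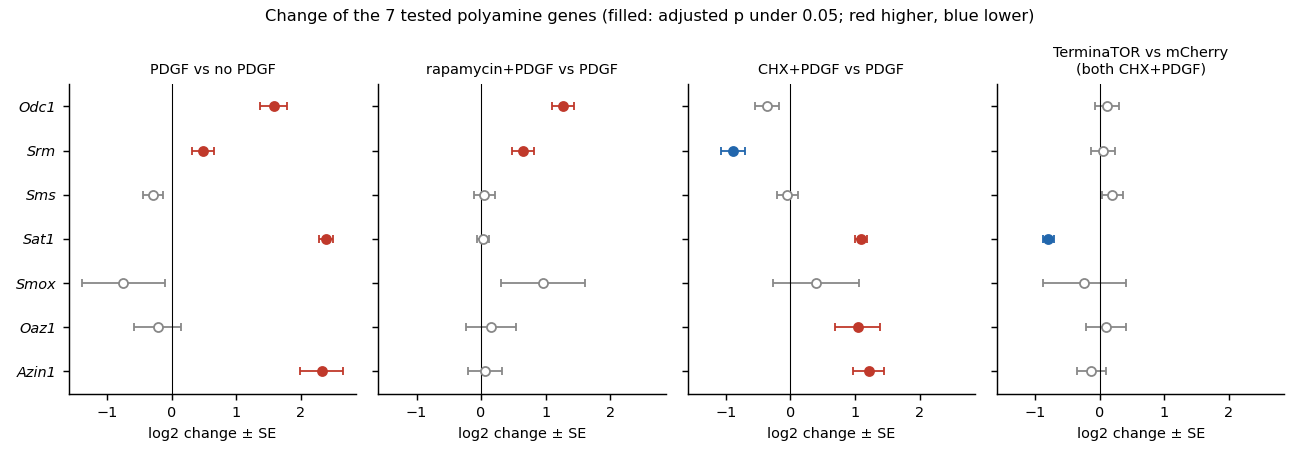
Log2 change ± SE of the 7 tested genes in the 4 main comparisons (horizontal axis). Filled points passed an edgeR adjusted p of 0.05. Sat1 is the gene that passed in TerminaTOR against mCherry (-0.80), and Odc1 and Srm are the ones that passed with rapamycin (1.27 and 0.65).

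Among the genes of breakdown, Sat1 (ENSMUSG00000025283, chrX:155213132-155216449, minus strand) had the most reads, 8160 in all. SSAT adds acetyl groups to spermidine and spermine, which are then oxidised or exported. Sat1 had 135, 149.6 and 114 CPM in TerminaTOR cells with cycloheximide and PDGF and 243, 214 and 239.7 CPM in mCherry cells with cycloheximide and PDGF. It had 109, 126 and 101 CPM with rapamycin and PDGF, 106, 116 and 105 CPM with PDGF, and 20.5, 20.5 and 21.3 CPM without PDGF. The mCherry libraries with cycloheximide were above all others, the TerminaTOR libraries all fell below them, and the libraries without PDGF were far below the rest, while rapamycin and PDGF libraries overlapped. PDGF raised Sat1 5.23-fold over no PDGF (log2 2.39 ± 0.11, edgeR adjusted p = 3.12e-30). Cycloheximide with PDGF raised it 2.14-fold over PDGF (1.10 ± 0.09, adjusted p = 2.21e-17) and 11.2-fold over no PDGF (3.48 ± 0.11, adjusted p = 3.03e-41).

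TerminaTOR cells had 1.74-fold less Sat1 than mCherry cells under cycloheximide and PDGF (log2 -0.80 ± 0.09, edgeR adjusted p = 1.46e-10, approximate 95% interval -0.99 to -0.60). Without each of the 6 libraries in turn the change ran from -0.89 to -0.71, with adjusted p of at most 1.45e-07. The fibroblast markers went both ways in this comparison, with Col1a1 (log2 0.28), Col1a2 (0.19) and Thy1 (0.51) higher, Vim lower (-0.69, adjusted p = 1.74e-05) and Pdgfra (-0.10) and S100a4 (-0.06) not past the threshold, and the mitochondrial shares overlapped. Rapamycin did not change Sat1 past the threshold (0.03 ± 0.09, adjusted p = 0.822, interval -0.17 to 0.24). The difference of the rapamycin effect and the TerminaTOR effect was 0.83 ± 0.13 (edgeR adjusted p = 2.46e-07); 2 of the 7 genes had a higher and 0 a lower rapamycin effect past the threshold, where 24.0% of all genes differed, 11.6% with a higher and 12.4% with a lower one. The other such gene was Odc1, at 1.16 ± 0.26 (adjusted p = 0.000314), and Srm did not pass (0.60 ± 0.26, adjusted p = 0.0817). The rapamycin effect was measured without cycloheximide and within 1 line, the TerminaTOR effect with cycloheximide and between lines. The inhibitor, the cell line and the presence of cycloheximide therefore cannot be told apart in this difference.

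The Sat1 values are those of Sat1-205 and thus of intron 3. Fitted as a transcript, it gave 2.34 ± 0.11 for PDGF against no PDGF (edgeR adjusted p = 4.13e-33), 1.13 ± 0.09 for cycloheximide against PDGF (adjusted p = 4.83e-19) and -0.81 ± 0.09 for TerminaTOR against mCherry (adjusted p = 4.71e-11). Sat1-206, whose own stretch lies in another part of the same intron, had 45 reads in the TerminaTOR libraries, 47 with cycloheximide, 15 with rapamycin, 24 with PDGF and 4 without PDGF. Its TerminaTOR change did not pass (-0.12 ± 0.52, adjusted p = 0.954). The coding transcript of Sat1 was not counted, since all Sat1 reads were on retained-intron transcripts. Sat1-207, the Sat1 transcript annotated as an NMD target, has 0 bases of its own and had 0 reads, so it was not measured. Its exon within intron 3 lies outside the stretch of Sat1-205.

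Sat1, Azin1 and Oaz1, all with most reads on retained-intron transcripts, were called higher with cycloheximide and PDGF against PDGF. Of 1511 tested genes with most reads on retained-intron transcripts, 150 (9.93%) were higher and 440 (29.1%) lower with cycloheximide and PDGF against PDGF, and their median log2 change was -0.39. In TerminaTOR against mCherry cells, 11 of them were higher and 29 (1.92%) lower, with a median of -0.06.

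Smox (ENSMUSG00000027333, chr2:131491496-131525922, plus strand), which oxidises spermine directly back to spermidine, had 121 reads. Its means were 1.56 ± 1.36 CPM in TerminaTOR cells, 1.67 ± 0.56 with cycloheximide, 2.48 ± 1.25 with rapamycin, 1.24 ± 0.55 with PDGF and 2.19 ± 0.76 without PDGF. All groups overlapped with the next in order. No comparison passed, and the intervals were wide: -2.18 to 0.68 on the log2 scale for PDGF against no PDGF (edgeR adjusted p = 0.388) and -1.67 to 1.19 for TerminaTOR against mCherry (adjusted p = 0.910).

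The genes that control ODC came out as follows. Azin1 (ENSMUSG00000037458, chr15:38487427-38519266, minus strand), the antizyme inhibitor, had 18.9, 24.8 and 20.7 CPM in TerminaTOR cells with cycloheximide and PDGF and 21.3, 22.4 and 26.5 CPM in mCherry cells with cycloheximide and PDGF. It had 8.91, 11.1 and 11.6 CPM with rapamycin and PDGF, 9.36, 12.9 and 8.29 CPM with PDGF, and 0.909, 0.873 and 4.11 CPM without PDGF. The libraries with cycloheximide, of either line, were above all others, the rapamycin and PDGF libraries overlapped, and those without PDGF were below all. PDGF raised Azin1 5.0-fold over no PDGF (log2 2.32 ± 0.33, edgeR adjusted p = 2.54e-08), and cycloheximide with PDGF raised it 2.31-fold over PDGF (1.21 ± 0.24, adjusted p = 3.36e-05) and 11.6-fold over no PDGF (3.53 ± 0.30, adjusted p = 2.77e-16). The baseline rested on 5, 4 and 22 reads: without no-PDGF replicate 3, the change for PDGF was 3.47, for rapamycin with PDGF against no PDGF 3.53 in place of 2.38, and for cycloheximide with PDGF against no PDGF 4.68. Rapamycin against PDGF (0.06 ± 0.27, adjusted p = 0.897) and TerminaTOR against mCherry (-0.13 ± 0.22, adjusted p = 0.843, interval -0.62 to 0.36) did not pass.

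Both transcripts of Azin1 with enough reads to be tested rose with cycloheximide. Azin1-206, counted in intron 9, gave 2.76 ± 0.37 for PDGF against no PDGF (edgeR adjusted p = 8.09e-10) and 1.02 ± 0.25 for cycloheximide against PDGF (adjusted p = 0.000727). Azin1-205, annotated as an NMD target and counted over 152 bases within intron 5 of the coding transcript, had 23 reads in the TerminaTOR libraries, 50 with cycloheximide, 8 with rapamycin, 6 with PDGF and 10 without PDGF. It rose with cycloheximide against PDGF (2.78 ± 0.88, adjusted p = 0.00955) and not past the threshold with PDGF against no PDGF (-0.36 ± 1.05, adjusted p = 0.829). The coding transcript Azin1-201 had 28, 32, 14, 9 and 2 reads in the TerminaTOR, cycloheximide, rapamycin, PDGF and no-PDGF libraries, too few to be tested.

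Oaz1 (ENSMUSG00000035242, chr10:80826656-80829290, plus strand), the main antizyme, is translated by a polyamine-dependent frameshift that an RNA count does not show. It had 9.68, 7.27 and 7.02 CPM in TerminaTOR cells with cycloheximide and PDGF and 7.24, 10.8 and 4.99 CPM in mCherry cells with cycloheximide and PDGF. It had 2.79, 5.23 and 4.28 CPM with rapamycin and PDGF, 3.86, 4.14 and 3.11 CPM with PDGF, and 3.45, 4.15 and 5.24 CPM without PDGF. The cycloheximide libraries were above those with PDGF alone, and 1 of them lay within the range of the libraries without PDGF. Cycloheximide with PDGF raised Oaz1 2.06-fold over PDGF (log2 1.04 ± 0.35, edgeR adjusted p = 0.0130), a call lost without PDGF replicate 3 or cycloheximide replicate 2 (adjusted p up to 0.160). PDGF (-0.22 ± 0.37, adjusted p = 0.683), rapamycin (0.15 ± 0.39, adjusted p = 0.811) and TerminaTOR (0.09 ± 0.31, adjusted p = 0.926) did not change it past the threshold.

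Oaz2 (ENSMUSG00000040652, chr9:65668001-65690300, plus strand), a second antizyme, had 14, 5 and 4 reads in TerminaTOR cells, 1, 3 and 2 reads in mCherry cells with cycloheximide, 0, 0 and 2 reads with rapamycin, 2, 0 and 0 reads with PDGF, and 4, 8 and 5 reads without PDGF. The TerminaTOR libraries were above the mCherry libraries with cycloheximide, and those without PDGF above the ones with PDGF or rapamycin, without overlap in CPM. In a fit without a filter on low counts neither TerminaTOR against mCherry (log2 1.73 ± 0.96, edgeR adjusted p = 0.736) nor PDGF against no PDGF (adjusted p = 0.163) passed.

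Further polyamine genes were read beside these in 5 lists: other enzymes and regulators, arginine and ornithine supply, S-adenosylmethionine supply and salvage, the modification of eIF5A, and transport. They hold 31 genes, of which 18 were tested, and their reads have the same limits as above. Their calls are those of the main test, and no other setting is reported for them here. The counts of these lists below stand beside 20.1% of all genes tested higher and 16.9% lower with PDGF against no PDGF. With rapamycin the shares were 16.3% and 16.1%, with cycloheximide 21.0% and 19.6%, and with TerminaTOR 2.35% and 2.57%. The 7 tested genes described above had a median log2 change of 0.48 with PDGF against no PDGF, 0.15 with rapamycin, 0.40 with cycloheximide and 0.05 with TerminaTOR, beside medians of -0.01, 0.02, 0.01 and 0.00 over all genes tested.

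Slc7a1 encodes CAT-1, the carrier that brings arginine into the cell. It averaged 608 ± 50 CPM in TerminaTOR cells, 521 ± 43 with cycloheximide, 3302 ± 127 with rapamycin, 2182 ± 56 with PDGF and 643 ± 21 without PDGF. Like Odc1 and Srm it was highest with rapamycin: it was 3.40-fold higher with PDGF than without (log2 1.76 ± 0.06, edgeR adjusted p = 2.17e-38) and 1.51-fold higher with rapamycin than with PDGF alone (0.60 ± 0.06, adjusted p = 2.89e-14). It was 4.19-fold lower with cycloheximide than with PDGF alone (-2.07 ± 0.06, adjusted p = 9.88e-42). It was also the only one of the 18 that passed in TerminaTOR against mCherry cells, 1.17-fold higher (0.22 ± 0.06, adjusted p = 0.0124). Oat, which links ornithine to glutamate and proline, was 1.30-fold lower with rapamycin and 1.62-fold higher with cycloheximide than with PDGF alone, and with PDGF against no PDGF it did not pass (0.05 ± 0.07). Of the 3 supply genes tested, 1 was higher and 0 lower with PDGF, 1 and 1 with rapamycin, 1 and 1 with cycloheximide, and 1 and 0 with TerminaTOR.

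**Figure D5:**
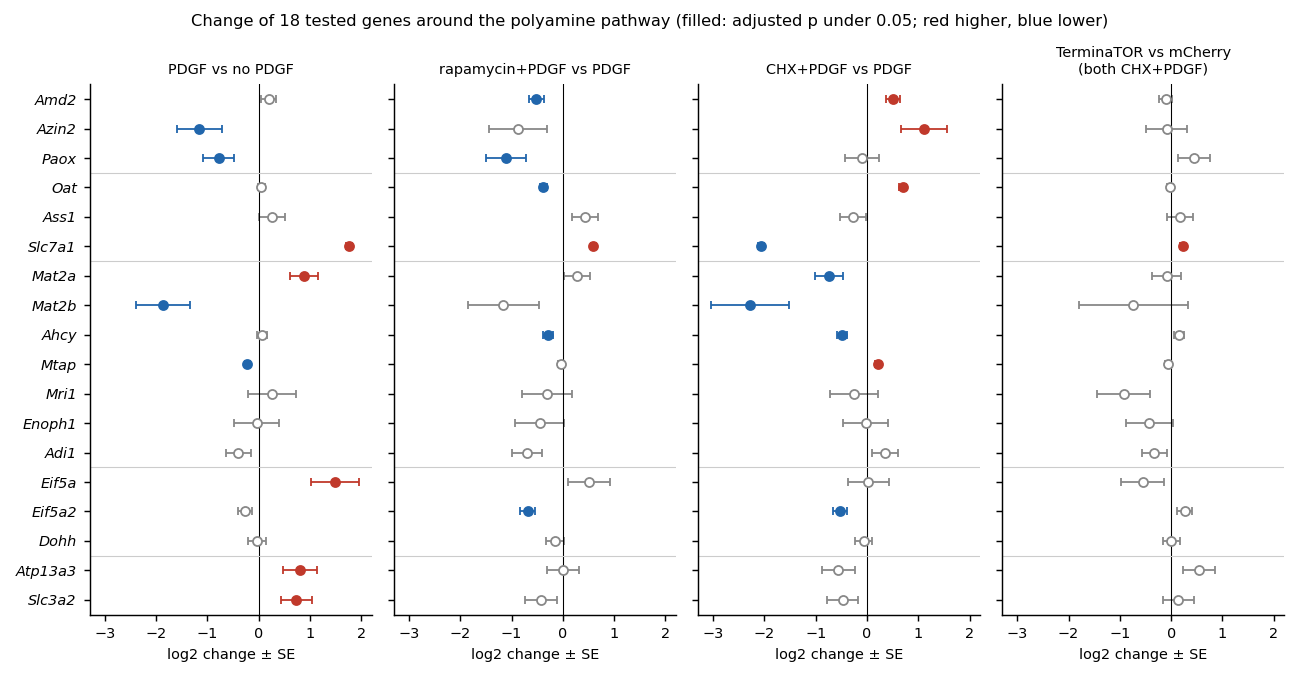
Log2 change ± SE of the 18 tested genes of the 5 further polyamine lists in the 4 main comparisons (horizontal axis); filled points passed an edgeR adjusted p of 0.05. Slc7a1 passed in all 4 comparisons (1.76, 0.60, -2.07 and 0.22), and it is the gene that passed in TerminaTOR against mCherry.

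Of the 7 tested genes of S-adenosylmethionine supply and salvage, 1 was higher and 2 lower with PDGF, 0 and 1 with rapamycin, 1 and 3 with cycloheximide, and 0 and 0 with TerminaTOR. Mat2a and Mat2b encode the catalytic and the regulatory part of methionine adenosyltransferase. Mat2a averaged 11.8 ± 1.4 CPM with PDGF and 6.38 ± 0.83 CPM without PDGF (1.84-fold higher, edgeR adjusted p = 0.00769), and Mat2b averaged 1.84 ± 0.40 CPM with PDGF and 6.82 ± 1.12 CPM without PDGF (3.64-fold lower, adjusted p = 0.00291). With cycloheximide against PDGF, Mat2a was 1.67-fold lower (adjusted p = 0.0250) and Mat2b 4.89-fold lower (adjusted p = 0.0114), the Mat2b value resting on 5 reads in the 3 cycloheximide libraries. Mtap, which salvages the by-product of spermidine and spermine synthesis, moved little: 1.16-fold lower with PDGF against no PDGF and 1.15-fold higher with cycloheximide against PDGF, both past the threshold. These are log2 -0.22 and 0.20. Scaling by library size only moved the median of all genes by -0.25 and -0.14 in these comparisons. Ahcy, the hydrolase of S-adenosylhomocysteine, was 1.23-fold lower with rapamycin and 1.41-fold lower with cycloheximide than with PDGF alone.

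Of 3 other enzymes and regulators tested, 0 were higher and 2 lower with PDGF, 0 and 2 with rapamycin, 2 and 0 with cycloheximide, and 0 and 0 with TerminaTOR. Paox, which oxidises acetylated polyamines, averaged 7.20 ± 1.22 CPM in TerminaTOR cells, 5.39 ± 1.23 with cycloheximide, 2.71 ± 1.41 with rapamycin, 5.69 ± 0.73 with PDGF and 9.89 ± 2.16 without PDGF. It was 1.72-fold lower with PDGF than without (edgeR adjusted p = 0.0386) and 2.15-fold lower with rapamycin than with PDGF alone (adjusted p = 0.0194). Azin2, a second antizyme inhibitor, averaged 2.18 ± 0.87 CPM with PDGF and 4.89 ± 2.09 CPM without PDGF (2.23-fold lower, adjusted p = 0.0313), whereas Azin1 rose in that comparison, and it was 2.16-fold higher with cycloheximide than with PDGF alone (adjusted p = 0.0389). Amd2 was 1.43-fold lower with rapamycin (adjusted p = 0.00491) and 1.42-fold higher with cycloheximide (adjusted p = 0.00180) than with PDGF alone, under the limit given above for its copy.

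Of 3 genes of eIF5A and its hypusine modification, which uses spermidine, 1 was higher and 0 lower with PDGF, 0 and 1 with rapamycin, 0 and 1 with cycloheximide, and 0 and 0 with TerminaTOR. Eif5a itself averaged 4.53 ± 1.84 CPM with PDGF and 1.59 ± 0.77 CPM without PDGF (2.81-fold higher, edgeR adjusted p = 0.00736). Its relative Eif5a2 was 1.60-fold lower with rapamycin and 1.44-fold lower with cycloheximide than with PDGF alone. Both tested genes of transport were higher with PDGF, Atp13a3, a transporter of polyamines, 1.75-fold (adjusted p = 0.0422) and Slc3a2 1.66-fold (adjusted p = 0.0492), and 0 were called in the other 3 comparisons.

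Of the transcription factors read beside them, Myc averaged 2.23 ± 1.27 CPM in TerminaTOR cells, 4.01 ± 1.07 with cycloheximide, 8.21 ± 2.90 with rapamycin, 6.29 ± 0.45 with PDGF and 1.64 ± 1.10 without PDGF. It was higher with PDGF than without (log2 1.90 ± 0.44, edgeR adjusted p = 0.000251), and not past the threshold in rapamycin against PDGF (0.39 ± 0.37), cycloheximide against PDGF (-0.65 ± 0.39) or TerminaTOR against mCherry (-0.96 ± 0.45, adjusted p = 0.256). Its partner Max was lower with cycloheximide than with PDGF alone (-1.30 ± 0.47, adjusted p = 0.0198). Atf4 passed in none of the 4 comparisons, and Mycn had too few reads to be tested.

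Across the 15 libraries, Sat1 and Azin1 had the most similar pattern of any pair of the 7 tested genes (Pearson r = 0.929 over log2 CPM, n = 15 libraries of 5 groups, a description, since libraries share groups). Odc1 and Srm followed at 0.668, and the values of Sms with the others ran from -0.542 (Sat1) to 0.151 (Smox). The genes with the nearest patterns to Odc1 were Hivep3 (0.972), Ascc3 (0.972) and Nol10 (0.971), and to Srm they were Adora2b (0.959), Ncs1 (0.954) and Casp4 (0.952). Ensa (0.986), Tcim (0.986) and Slc16a10 (0.978) were nearest to Sat1, and Elmsan1 (0.961) and Flrt3 (0.960) to Azin1. For Oaz1 they were Rps6ka5 (0.925), Sf3a3 (0.916) and Aggf1 (0.908), for Sms Mta3 (0.849), Msi1 (0.789) and Tmem121 (0.775), and for Smox Tpr (0.751), Pcdhb11 (0.728) and Nrm (0.689).

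Promoter windows of RefSeq on GRCm38.p6, 250 bases before to 50 after the transcription start, were at hand for 7 of the 9 genes, all but Srm and Azin1. They were searched on both strands for the E-box CACGTG that MYC and MAX bind, TGACGTCA, TATAAA and TGATGNAA. CACGTG was found in 1 of the 7 genes, Sms, and is in 7.17% of all 32544 windows. TATAAA was found in 1, Oaz1 (13.6% of all windows), and TGACGTCA (1.80%) and TGATGNAA (3.91%) in 0. A window without a match says only that these letters are not in it.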

How the data were processed

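Per the labels, messenger RNA was captured on oligo-dT beads from total RNA of 15 NIH3T3 samples and read by RNA-seq. The deposited files hold whole-number read counts per Ensembl mouse transcript, not normalized. Per the submitters' processing notes, R 4.1.0, the aligner HISAT2 2.2.1 and the counter HTSeq 0.9.1 were used, with hg38, a human build. No mouse build, annotation, counting mode or library strand is given in the sources used here, and without strand a gene and its antisense partner cannot be told apart. Of 142446 transcript identifiers 141536 matched GENCODE M21 (GRCm38), and the rest, with 0.0309% of counts, were left out. Counts were summed to 55266 genes.

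The main test was edgeR 4.0.16 (R 4.3.3), quasi-likelihood, with TMM scaling, filterByExpr (10603 genes) and 1 mean per group over all 15 libraries, which leaves 10 residual degrees of freedom. The SE is the size of the log2 change over the root of the F statistic. DESeq2 1.42.0, other scalings, no filter, the compared groups alone, a replicate block, transcripts as deposited and leaving out each library were alternatives. The procedure was tested on simulated data. The members and the lists were chosen with earlier results of these data known. From the further lists the text names called genes, at most 4 per list and comparison by size of change, and for each tested member the 3 genes of highest correlation. For Azin1, 1 gene that this rule selects is not reported here.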

Additional observations from a re-analysis of the deposited data

Results flagged for a closer look

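For 2 of the 7 tested polyamine genes the effect of rapamycin (with PDGF, against PDGF) and that of TerminaTOR (against mCherry, with cycloheximide and PDGF) differed by a test of the difference itself. That test called 24.0% of all genes tested, 11.6% with a higher and 12.4% with a lower rapamycin effect. For Odc1 the rapamycin effect was higher by 1.16 ± 0.26 (log2, SE, edgeR adjusted p = 0.000314): 1.27 for rapamycin beside 0.12 for TerminaTOR, and from 0.99 to 1.30 without each of the 12 libraries in turn. For Sat1 the difference was 0.83 ± 0.13 (adjusted p = 2.46e-07): 0.03 for rapamycin beside -0.80 for TerminaTOR, and from 0.74 to 0.92 without each library. Cycloheximide was present in the TerminaTOR comparison and absent from the rapamycin comparison, so the inhibitor, the cell line and the presence of cycloheximide cannot be told apart in these values.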

How the results depend on the processing

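Of 49 results on the 7 tested genes over 7 comparisons, 21 were called, and of the 264 values of these under other settings 250 kept their call, 14 lost it and 0 changed sign. Of 360 values of the results not called, 319 stayed so with the same sign, 9 passed and 32 changed sign. The losses were those of Srm with PDGF and of Oaz1 in both cycloheximide comparisons. Oaz1 with cycloheximide and PDGF against no PDGF (log2 0.82, adjusted p = 0.0354) missed the threshold with DESeq2 (adjusted p = 0.0511), library size only, no filter, and without single libraries (adjusted p up to 0.300). Relative to the median of all genes, the 7 genes kept their values under library size only (Srm with PDGF 0.49 in either scaling). A change of scaling moves all genes by nearly the same amount, so this follows from the method and is no check. Scaling by library size only moved that median by -0.25 with PDGF, -0.13 with rapamycin, -0.14 with cycloheximide and 0.03 with TerminaTOR. Under it the share of higher calls among all calls was 30.7% in place of 54.3% with PDGF, 35.7% in place of 50.3% with rapamycin, 39.0% in place of 51.8% with cycloheximide and 60.5% in place of 47.7% with TerminaTOR. It also called 1 of the 7 lower with PDGF against no PDGF (0 in the main test), 2 with cycloheximide against PDGF (1), 1 with rapamycin against no PDGF (0) and 2 with cycloheximide against no PDGF (0), where it called 29.3%, 25.2%, 39.2% and 41.5% of all genes lower in these comparisons. The last count of genes was 0 to 1 without single libraries.

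The genes called in TerminaTOR against mCherry numbered 522, with 804 in a fit of these groups alone and 308 to 367 without single libraries. No pairing of the samples by replicate number was clear. Over 30 pairs of same-numbered libraries the correlation of deviations ran from -0.0378 to 0.0668, and 8 of 15 libraries lay closest to their own number. Counting noise lowers such correlations, so this check cannot exclude a pairing. With the number as a replicate block, 3933 genes were called with PDGF against no PDGF (3922 without it) and 563 with TerminaTOR (522).

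Values that changed sign were of genes that did not pass. With library size only, rapamycin against PDGF gave -0.076 for Sms, -0.092 for Sat1 and -0.067 for Azin1, rapamycin against no PDGF -0.17 for Smox, and the rapamycin minus TerminaTOR difference -0.10 for Oaz1. Without a filter, Sms gave -0.0011 and Sat1 -0.016 for rapamycin, and Oaz1 -0.013 for the difference. Without single libraries, rapamycin against PDGF ran from -0.053 to 0.18 for Sms, -0.058 to 0.095 for Sat1, -0.044 to 0.36 for Oaz1 and -0.087 to 0.26 for Azin1. Cycloheximide against PDGF ran from -0.17 to 0.037 for Sms. TerminaTOR against mCherry ran from -0.034 to 0.27 for Odc1, -0.090 to 0.26 for Srm, -0.97 to 0.24 for Smox and -0.15 to 0.40 for Oaz1. Rapamycin against no PDGF ran from -0.17 to 0.56 for Smox and -0.25 to 0.15 for Oaz1, and the difference from -0.25 to 0.29 for Oaz1. The causes were not tested. Depth limits Amd1, Smox and Oaz2, which had 121 reads or fewer over all libraries.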

Other observations

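Among further polyamine genes, Slc7a1 was 5.14-fold higher with rapamycin and PDGF than without PDGF (edgeR adjusted p = 3.44e-46) and 1.24-fold lower with cycloheximide and PDGF than without PDGF (adjusted p = 1.13e-05). Odc1, unlike Slc7a1, was called higher with cycloheximide and PDGF than without PDGF (2.33-fold). Paox was lower than without PDGF in both comparisons, 3.70-fold with rapamycin (adjusted p = 5.10e-06) and 1.84-fold with cycloheximide (adjusted p = 0.0135). Eif5a was higher in both, 4.02-fold with rapamycin (adjusted p = 0.000108) and 2.87-fold with cycloheximide (adjusted p = 0.00405).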
